A study of Mus musculus with 9 samples.

Results

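Blood vessels of the mouse conjunctiva, the mucous membrane of the eyelids and eyeball, were followed through 10 genes that mark blood endothelium: Pecam1, Cdh5, Emcn, Plvap, Vwf, Egfl7, Esam, Cldn5, Sox17 and Ackr1. They were taken by symbol, as junction, venous and fenestration markers. All 10 are among the 20603 genes of the count table, and all 10 were among the 15613 with enough counts to be tested. The data are raw counts of messenger RNA reads in 9 libraries, 3 in each of 3 groups, and each library pooled the conjunctiva of 3 mice. Unchallenged and challenged controls were Vegfr3 fl/fl mice (a genotype tag reads Vegfr3 fl/f). Challenged Vegfr3iLECko mice were their Vegfr3 fl/fl littermates with Prox1CreERT2, a tamoxifen-inducible Cre driven by Prox1, a gene of lymphatic endothelium; other cells that use Prox1 can also recombine. All groups, controls included, were C57BL/6J-background mice given 5 intraperitoneal tamoxifen injections (75 mg/kg) at week 5. At week 6 all were immunized with 250 µg ovalbumin (OVA), 0.3 µg pertussis toxin (PTX) and 5 mg aluminum hydroxide. Challenge was OVA eye drops (250 µg in 5 µL) into the right eye each day for 28 days, begun 14 days after immunization, while the other eye received saline. Which eye or which mice the unchallenged pools came from is not stated, and no unchallenged Vegfr3iLECko pool was analysed here.

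Endothelial cells line every blood vessel and are held together by adherens and tight junctions, which set how much fluid and how many cells pass into the tissue. Venules, where white blood cells leave the blood during inflammation, carry their own set of endothelial genes, and fenestrated capillaries have pores closed by thin protein diaphragms. Lymphatic endothelium, in which Vegfr3 (gene symbol Flt4) was deleted, is a separate lineage that drains the tissue and shares some of these genes, Pecam1 and Cdh5 among them.

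Total counts were 16490050 to 24746836 per library, and 3 counts, the floor used for a count of 0, were worth 0.115 to 0.186 CPM (TMM-scaled counts of a gene relative to the library total). Conjunctival epithelium was well represented: the summed level of its 10 listed markers was 19695 to 35693 CPM, led by the keratin genes Krt5 and Krt4. Flt4, the deleted gene, was lower in all 3 Vegfr3iLECko libraries than in all 3 challenged controls (log2 fold change -1.20, SE 0.40, edgeR adjusted p = 0.468). The gap was narrow for Vegfr3iLECko 1, which held the highest summed marker level: Flt4 was at 13.0 CPM there, 5.07 and 5.32 CPM in the other Vegfr3iLECko libraries, 13.4, 20.3 and 20.1 CPM in the challenged controls and 18.5, 26.8 and 13.5 CPM in the unchallenged controls. No pair of libraries of a group was a copy of another. P-values measure the spread between these pools; whether pools were collected in separate experiments is not stated.

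As a sum, the 10 markers were highest in 2 libraries of different groups. Their summed level was 111, 200 and 98.3 CPM in unchallenged controls 1 to 3. It was 104, 82.2 and 58.9 CPM in challenged controls 1 to 3, and 243, 90.8 and 122 CPM in challenged Vegfr3iLECko libraries 1 to 3. Unchallenged control 2 and Vegfr3iLECko 1 stood far above the other 7 libraries, while challenged control 3 was lowest. The same 2 libraries were the highest pair for 8 of the 10 genes, all but Cldn5 and Ackr1, and challenged control 3 was lowest for 8, all but Cldn5 and Egfl7. They were also the most deeply sequenced libraries, with 24746836 and 24093007 counts; the part of depth in these levels was not tested. The group means of the summed level were 137 ± 55.4, 81.7 ± 22.6 and 152 ± 80.5 CPM (SD, n = 3 pools each). The highest library exceeded the lowest 4.13-fold in the sum and 3.23-fold (Egfl7) to 8.72-fold (Vwf) in single genes. In whole tissue, fewer endothelial cells and less RNA per endothelial cell cannot be told apart.

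**Figure D1:**
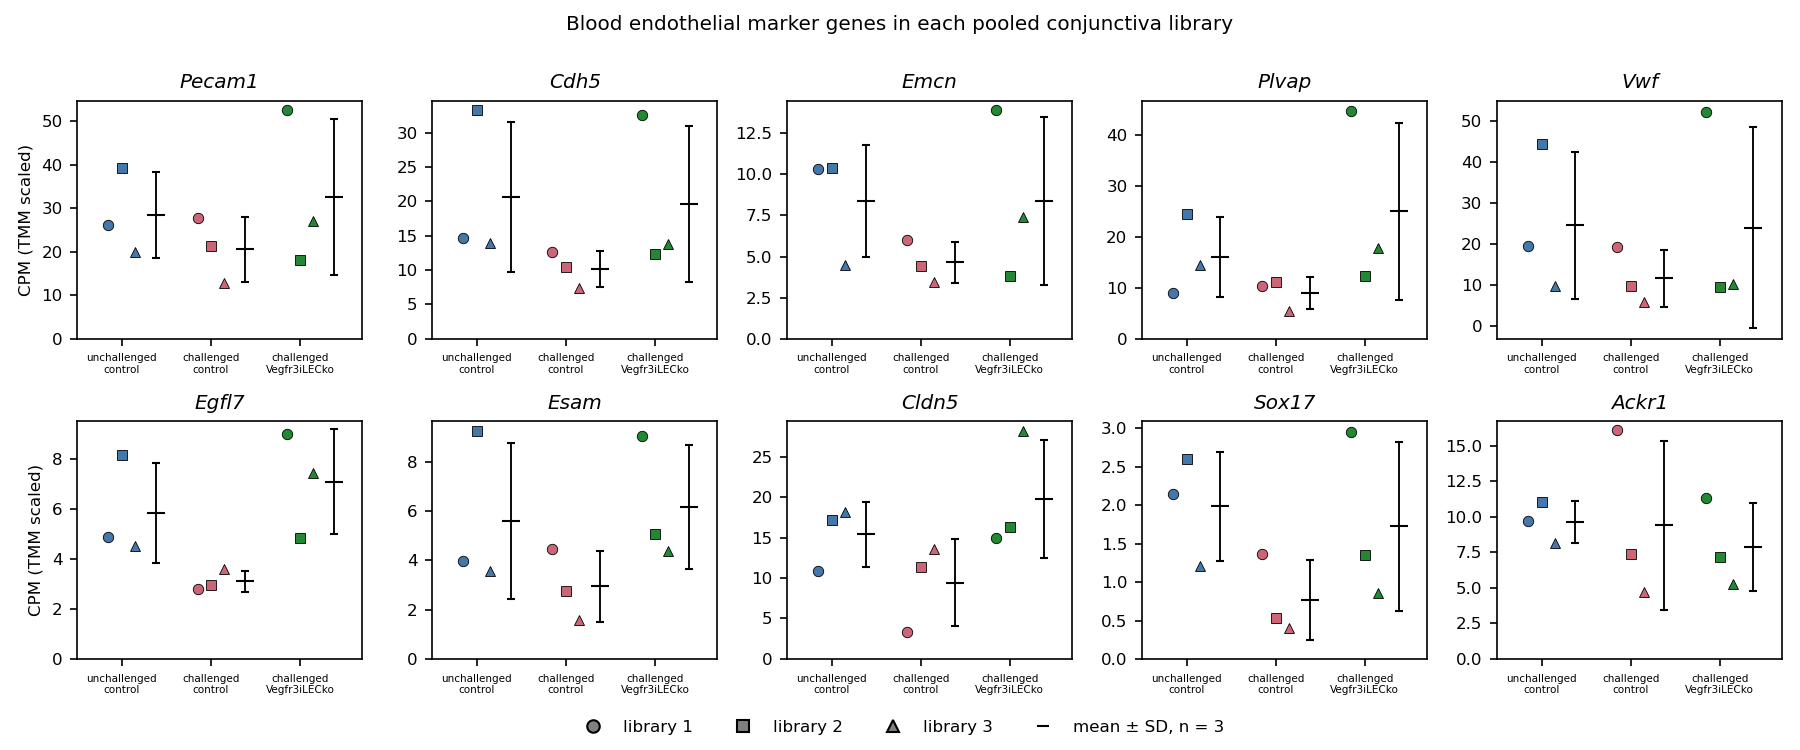
Level of each of the 10 marker genes (vertical axis, CPM after TMM scaling) in the 3 libraries of each group, with the group mean and SD beside them (n = 3). Unchallenged control 2 and Vegfr3iLECko 1 are the highest pair in 8 panels, and in Ackr1 challenged control 1 is highest at 16.1 CPM.

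RefSeq promoter windows, from 250 bases before to 50 after a start site, were matched by symbol for 4 of the 10 genes (build GRCm38.p6, not the build of the counts). These 4 genes are shown because no others were matched, not because of their levels. Emcn and Egfl7 are 2 of the 8 genes that shared their 2 highest libraries, and Cldn5 and Ackr1 are the 2 that did not. Pecam1, Cdh5, Plvap, Vwf, Esam and Sox17 were not matched. The windows are chr3:137340828-137341127 (plus strand) for Emcn, chr2:26580833-26581132 (plus strand) for the first of 3 Egfl7 starts, chr16:18776597-18776896 (plus strand) for Cldn5 and chr1:173333454-173333753 (minus strand) for Ackr1. Capitals mark 2 short motifs on either strand, GGAAG (the core bound by ETS factors; CTTCC on the other strand) and ACAAT (a SOX core; ATTGT on the other strand), which do not overlap each other.

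Emcn: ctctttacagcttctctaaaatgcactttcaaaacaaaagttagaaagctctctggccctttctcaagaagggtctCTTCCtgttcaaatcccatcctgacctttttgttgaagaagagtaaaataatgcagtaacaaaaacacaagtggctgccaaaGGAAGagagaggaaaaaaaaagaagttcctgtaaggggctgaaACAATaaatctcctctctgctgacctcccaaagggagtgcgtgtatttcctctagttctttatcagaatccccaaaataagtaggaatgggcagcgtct
Egfl7: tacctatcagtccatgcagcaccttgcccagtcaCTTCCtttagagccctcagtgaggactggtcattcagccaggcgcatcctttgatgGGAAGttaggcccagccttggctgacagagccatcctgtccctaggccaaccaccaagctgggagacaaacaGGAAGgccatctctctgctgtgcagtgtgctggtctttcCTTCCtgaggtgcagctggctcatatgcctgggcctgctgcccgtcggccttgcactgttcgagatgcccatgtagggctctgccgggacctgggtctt
Cldn5: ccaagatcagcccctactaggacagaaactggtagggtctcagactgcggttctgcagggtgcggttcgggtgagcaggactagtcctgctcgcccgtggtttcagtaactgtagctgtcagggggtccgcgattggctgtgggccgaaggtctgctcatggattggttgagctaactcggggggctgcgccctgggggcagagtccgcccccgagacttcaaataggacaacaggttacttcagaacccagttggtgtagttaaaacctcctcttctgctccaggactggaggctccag
Ackr1: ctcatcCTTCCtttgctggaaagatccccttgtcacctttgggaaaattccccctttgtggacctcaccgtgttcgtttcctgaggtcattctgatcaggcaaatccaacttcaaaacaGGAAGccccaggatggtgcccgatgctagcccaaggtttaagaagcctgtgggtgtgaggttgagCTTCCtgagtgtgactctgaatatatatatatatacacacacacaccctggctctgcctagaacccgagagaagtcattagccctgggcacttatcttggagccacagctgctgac

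The ETS core occurred 2 times in the Emcn window, 3 times in that of Ackr1 and 4 times in the Egfl7 window shown, with 3 and 0 matches at the other starts of Egfl7. The Cldn5 window held 0. Among the 32851 windows of all genes, 71.4% hold at least 1 match. The SOX core occurred 1 time in the Emcn window and 0 times in the other windows of these genes, and 31% of all windows hold it. These are letter matches, not binding sites.

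Per kilobase of transcript, which allows genes to be compared, Cldn5 had the highest mean level in unchallenged conjunctiva and Sox17 the lowest. Cldn5 was at 10.9 ± 2.81 CPM per kb, followed by Ackr1 (8.35 ± 1.26), Pecam1 (8.27 ± 2.86), Plvap (8.04 ± 3.94) and Cdh5 (5.17 ± 2.75; all SD, n = 3). Egfl7 (4.20 ± 1.44), Emcn (3.24 ± 1.32), Esam (3.00 ± 1.70) and Vwf (2.79 ± 2.02 CPM per kb) came next, and Sox17 was at 0.612 ± 0.220 CPM per kb. Neighbours in this order overlapped between pools, except that Vwf was above Sox17 in all 3 pools. Transcript lengths were those of the longest coding transcript in GENCODE M21 (build GRCm38), from 1.15 kb for Ackr1 to 8.83 kb for Vwf.

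The junction genes are described first. Pecam1 encodes CD31, an adhesion protein of endothelial cell contacts that leukocytes and platelets also carry. It was at 26.2, 39.2 and 19.9 CPM in the unchallenged controls, 27.7, 21.3 and 12.8 CPM in the challenged controls and 52.7, 18.0 and 27.0 CPM in the Vegfr3iLECko libraries. The 3 groups overlapped. With challenge the log2 fold change of Pecam1 was -0.47 (SE 0.42, adjusted p = 0.762), and between Vegfr3iLECko and control under challenge, called genotype from here on, it was 0.66 (SE 0.42, adjusted p = 0.703), by the edgeR quasi-likelihood test. These values were -0.16 without unchallenged control 2 and 0.13 without Vegfr3iLECko 1, respectively. These comparisons share the challenged controls, so low values there enter both with opposite sign. Cdh5, VE-cadherin, is the adhesion protein of endothelial adherens junctions. Its level was 14.7, 33.3 and 14.0 CPM without challenge, 12.6, 10.5 and 7.36 CPM with challenge and 32.6, 12.3 and 13.8 CPM in the knockouts. All 3 challenged controls lay below all 3 unchallenged controls, though library 1 of the challenged group (12.6) was close to library 3 of the unchallenged (14.0). The log2 fold change of Cdh5 was -1.03 for challenge (SE 0.45, unadjusted p = 0.0481, adjusted p = 0.396) and 0.95 for genotype (SE 0.45, adjusted p = 0.618). Without unchallenged control 2 the first was -0.49, and without knockout 1 the second was 0.37.

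Esam, an immunoglobulin-family adhesion molecule of endothelial tight junctions, was at 3.98, 9.27 and 3.57 CPM without challenge and 4.45, 2.78 and 1.60 CPM with challenge. In the knockouts it was at 9.07, 5.07 and 4.40 CPM. The groups overlapped, and the log2 fold change of Esam was -0.94 for challenge (SE 0.50, adjusted p = 0.525) and 1.08 for genotype (SE 0.50, adjusted p = 0.613). They were -0.36 without unchallenged control 2 and 0.69 without knockout 1. Cldn5, claudin-5, seals endothelial tight junctions and is known for the barrier of brain and retinal vessels. It did not share the library pattern of the others: 10.8, 17.2 and 18.2 CPM without challenge, 3.34, 11.4 and 13.6 CPM with challenge and 14.9, 16.3 and 28.1 CPM in the knockouts. Challenged control 1 was far below all other libraries and knockout 3 far above them. All 3 knockout libraries were above all 3 challenged controls, and the log2 fold change of Cldn5 was 1.06 (SE 0.47, unadjusted p = 0.0460, adjusted p = 0.579). With challenge it was -0.70 (SE 0.46, adjusted p = 0.632). Without challenged control 1 these values were 0.66 and -0.30.

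Of the venous and luminal surface markers, Vwf spanned the widest range of the 10 genes. Vwf encodes von Willebrand factor, which endothelial cells store and release to capture platelets, and which platelets also contain. Its level was 19.6, 44.5 and 9.82 CPM without challenge, 19.2, 9.77 and 5.99 CPM with challenge and 52.2, 9.67 and 10.2 CPM in the knockouts. Knockout 1 and unchallenged control 2 were far above the other libraries, the groups overlapped, and the coefficient of variation of Vwf within that group was 102%. The log2 fold change of Vwf was -1.08 for challenge (SE 0.75, adjusted p = 0.655) and 1.05 for genotype (SE 0.75, adjusted p = 0.731). Without knockout 1 the genotype value was -0.22, and without unchallenged control 2 the challenge value was -0.34. Ackr1, a chemokine-binding receptor of venules that also carries the Duffy antigen of red blood cells, had the tightest unchallenged group, at 9.73, 11.03 and 8.14 CPM (coefficient of variation 15.03%). With challenge it was at 16.1, 7.35 and 4.73 CPM, and in the knockouts at 11.3, 7.14 and 5.26 CPM. Its reads cannot be told apart from those of Cadm3 where the genes overlap, since strand is not stated. Challenged controls held both the highest and the lowest Ackr1 level of all 9 libraries. The log2 fold change of Ackr1 was -0.04 for challenge (SE 0.44, adjusted p = 0.992) and -0.24 for genotype (SE 0.44, adjusted p = 0.881), the only 1 of the 10 below 0 in that comparison. Without challenged control 1 these values were -0.67 and 0.39.

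Emcn, endomucin, is a mucin-like protein of the venous and capillary surface that limits leukocyte attachment. It was at 10.3, 10.4 and 4.46 CPM without challenge, 6.00, 4.44 and 3.48 CPM with challenge and 13.9, 3.83 and 7.43 CPM in the knockouts. Its groups overlapped, with a log2 fold change of -0.86 for challenge (SE 0.49, adjusted p = 0.556) and 0.86 for genotype (SE 0.49, adjusted p = 0.673). The genotype value of Emcn was 0.28 without knockout 1. Plvap, which overlaps Gtpbp3 in the annotation and carries the same limit, forms the diaphragms of fenestrae and caveolae. It was at 9.0, 24.4 and 14.5 CPM without challenge, 10.4, 11.2 and 5.36 CPM with challenge and 44.6, 12.3 and 17.8 CPM in the knockouts. All 3 knockout libraries were above all 3 challenged controls, narrowly so for knockout 2 (12.3 against 11.2). The log2 fold change of Plvap with genotype was 1.48 (SE 0.52), the largest of the 10, with an unadjusted p of 0.0186 and an adjusted p of 0.489. It was 0.75 without knockout 1. With challenge the value was -0.83 (SE 0.52, adjusted p = 0.606), and -0.39 without unchallenged control 2.

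Egfl7 is a secreted factor of endothelial matrix, and Sox17 a transcription factor best known for arterial endothelium. Egfl7 was at 4.87, 8.16 and 4.51 CPM without challenge, 2.78, 2.96 and 3.59 CPM with challenge and 8.99, 4.84 and 7.43 CPM in the knockouts. The challenged controls lay below every library of both other groups. The log2 fold change of Egfl7 was -0.91 for challenge (SE 0.34, unadjusted p = 0.0229, adjusted p = 0.286) and 1.19 for genotype (SE 0.34, unadjusted p = 0.00586, adjusted p = 0.376). These were the lowest adjusted p-values of the 10 genes in each comparison. The genotype value ranged from 0.98 without knockout 1 to 1.40 without knockout 2, and the challenge value from -1.06 to -0.59. Sox17 was the scarcest marker, with 7 to 76 counts per library. It was at 2.15, 2.60 and 1.21 CPM without challenge, 1.36, 0.538 and 0.399 CPM with challenge and 2.96, 1.36 and 0.858 CPM in the knockouts. Its groups overlapped, with a log2 fold change of -1.39 for challenge (SE 0.63, adjusted p = 0.413) and 1.19 for genotype (SE 0.63, adjusted p = 0.649). The genotype value of Sox17 was 0.55 without knockout 1 and 1.87 without challenged control 1.

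With challenge 0 of the 10 genes passed an adjusted p of 0.05 over all genes by edgeR, DESeq2 or limma-voom. Of all genes tested, 0.064%, 4.82% and 0.0384% passed by these tools. All 10 values were below 0, with a median log2 fold change of -0.88 against -0.01 over all 15613 genes. At an unadjusted p under 0.05 there were 2 (Cdh5 and Egfl7) by edgeR, 3 by DESeq2 and 2 by limma-voom, where 12.4%, 13.7% and 11.3% of all genes had such a p. In 2 of 10 genes, the same pair, the groups did not overlap, against 15.7% of all genes tested. The median was -0.44 without unchallenged control 2. Between challenged Vegfr3iLECko and challenged control again 0 of the 10 passed by any of the 3 tools. Of all genes, 0% passed by edgeR and limma-voom and 1.48% by DESeq2. Here 9 of 10 values were above 0, with a median of 1.06 against 0.00 over all genes. At an unadjusted p under 0.05 there were 3 (Plvap, Egfl7 and Cldn5) by edgeR, 5 by DESeq2 and 4 by limma-voom, where 8.49%, 9.94% and 7.11% of all genes had such a p. The lowest adjusted p was 0.0583 for Egfl7 by DESeq2. The same 3 genes had groups that did not overlap, against 12.9% of all genes. The median was 0.46 without Vegfr3iLECko 1. Pools of the 2 control groups that share a number deviated together. With that number as a block over all 9 libraries in edgeR, 0 of the 10 passed in either comparison. Of all genes, 1.71% passed with challenge and 0.141% with genotype. At an unadjusted p under 0.05 there were 5 of the 10 with challenge and 6 with genotype under this block. Of all genes, 16.6% and 16.3% had such a p.

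**Figure D2:**
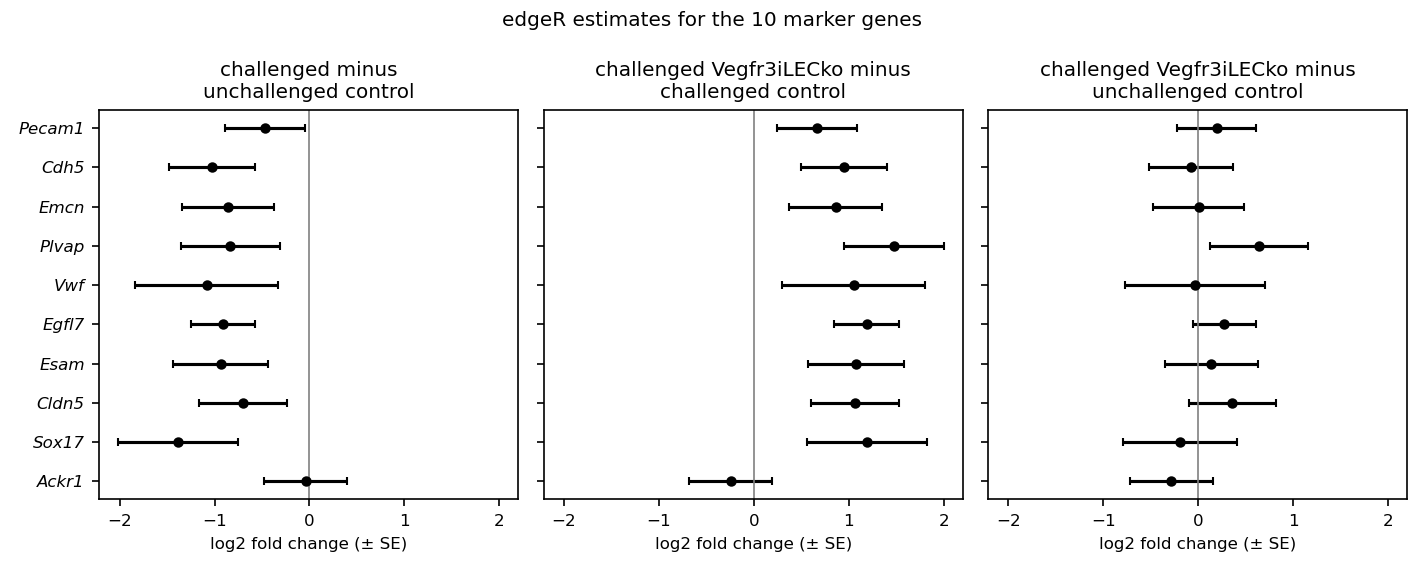
Log2 fold change of each marker (horizontal axis, points) with its standard error (bars) in the 3 comparisons, from the edgeR fit. All 10 points lie below 0 with challenge, 9 lie above 0 between Vegfr3iLECko and challenged control, and the third panel spans -0.28 (Ackr1) to 0.64 (Plvap).

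Challenged Vegfr3iLECko and unchallenged control differed in both challenge and genotype. Of the 10 genes 6 were above and 4 below 0, with a median log2 fold change of 0.07 and a range of -0.28 for Ackr1 (SE 0.44) to 0.64 for Plvap (SE 0.51). None of the 10 passed by edgeR, DESeq2 or limma-voom (lowest edgeR adjusted p = 0.999), against 0% of all genes by edgeR and limma-voom and 0.0897% by DESeq2. At an unadjusted p under 0.05 there were 0 of the 10 by each tool, against 2.9%, 3.82% and 2.81% of all genes by edgeR, DESeq2 and limma-voom. In 0 of 10 the groups failed to overlap, against 6.59% of all genes. Without Vegfr3iLECko 1 the value for Plvap was -0.083 and the median of the 10 was -0.45, with 8 below 0. Without unchallenged control 2 they were 1.09 and 0.48, with 9 above 0. The standard errors, 0.33 to 0.74, are too wide to show that the markers were equal in these groups.

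The markers other than Cldn5 and Ackr1 varied together over the 9 libraries, less closely so without the 2 highest. Among their 28 pairs, Pearson's r of log2 CPM was 0.61 to 0.94 with a median of 0.86. The highest were Pecam1 with Vwf (0.94) and Cdh5 with Esam (0.94). Points share library, depth and group, and without unchallenged control 2 and Vegfr3iLECko 1 the median over the other 7 libraries was 0.64 and the range -0.09 to 0.87. The lowest pairs were then Vwf with Egfl7 (-0.09), Pecam1 with Egfl7 (0.19) and Plvap with Vwf (0.21). Cldn5 had a median r of 0.06 with the other 9 genes and its highest r, 0.66, with Egfl7. Ackr1 had a median r of 0.56, and with Cldn5 it ran in the opposite direction (r = -0.67, and -0.83 in 7 libraries). Against the mean of all 10 markers, the 5 most similar of 14154 other genes were Mmrn2 (r = 0.99), Rpap2 (0.97), Mcam (0.97), Arhgef15 (0.97) and Robo4 (0.96). Mmrn2 and Robo4 are surface or matrix proteins of endothelium, Mcam marks endothelium and pericytes, and Rpap2 is a phosphatase of RNA polymerase II. Rpap2 varied little, from 9.47 to 11.95 CPM, while Mmrn2 ranged from 1.996 to 14.2 CPM.

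**Figure D3:**
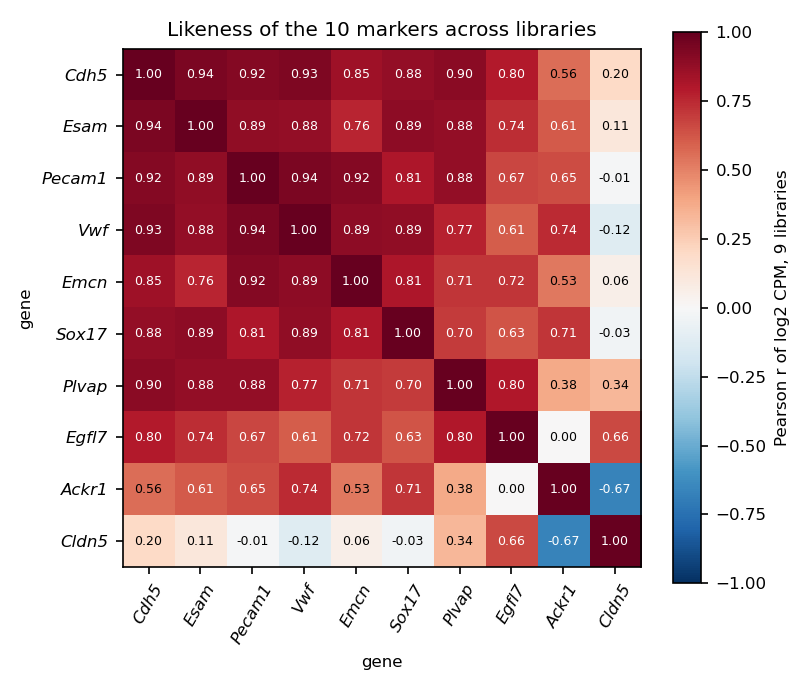
Pearson's r between every pair of the 10 markers (both axes) over the 9 libraries, computed on log2 CPM. The upper left block of 8 genes holds values of 0.61 to 0.94, and the cell of Ackr1 and Cldn5 is at -0.67.

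The other genes of blood endothelium gave a similar picture in the number above and below 0, but not in summed level with genotype. Of 20 other pan-endothelial genes, 0 passed in either direction with challenge, 18 were below 0 and the median log2 fold change was -0.73. With genotype 0 passed, 15 were above 0, 5 were below 0 and the median was 0.72. The 20 genes summed to 755 to 914 CPM without challenge and 536 to 662 CPM with challenge. In the knockouts they summed to 809, 493 and 478 CPM, so knockouts 2 and 3 lay below all challenged controls. Their mean level had an r of 0.98 with the marker mean over the 9 libraries. The most abundant, Cd34, which stromal cells also carry, was at 452, 499 and 483 CPM without challenge, 300.3, 393 and 378 CPM with challenge and 428, 296 and 261 CPM in the knockouts. Kdr, the main VEGF receptor of blood endothelium, was at 66.5, 64.8 and 67.1 CPM, 30.4, 58.6 and 63.1 CPM, and 62.0, 37.3 and 58.8 CPM. Both were below the unchallenged range in all 3 challenged controls and all 3 knockouts. Neither passed (edgeR adjusted p = 0.463 and 0.670 with challenge). With genotype the log2 fold change was -0.12 for Cd34 and 0.05 for Kdr. For Eng and Flt1, also of the 20 genes, it was -0.04 and -0.80 (SE 0.33 and 0.30, edgeR adjusted p = 0.980 and 0.508). By vessel type, 0 of 8 arterial, 0 of 7 capillary and 0 of 4 venous identity genes passed in either comparison. Their medians with challenge were -0.03, -1.10 and -0.37 and with genotype 0.48, 1.03 and 0.61. The most abundant venous gene, Nr2f2, a nuclear receptor that sets vein identity and is also used outside vessels, was at 105, 94.5 and 125 CPM, 58.0, 90.2 and 102 CPM, and 88.3, 148 and 116 CPM in the 3 groups. Its groups overlapped in both comparisons (adjusted p = 0.634 and 0.632). The arterial ligand Efnb2, which epithelium also expresses, stayed between 151 and 229 CPM in all 9 libraries. Of 10 partners of VE-cadherin and tight junctions, which epithelium shares, 0 passed, with medians of 0.08 and 0.03. Of 6 caveola genes 0 passed, with medians of -0.28 and 0.18, and of 10 lymphatic genes 0 passed, with -0.25 and -0.05.

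Set against these 20 genes in the same library, the markers had overlapping groups with challenge. The measure is a gene's log2 CPM minus the mean log2 CPM of the 20 genes. That mean was 3.25, 3.82 and 3.01 without challenge, 2.93, 2.76 and 2.36 with challenge and 3.92, 2.74 and 2.91 in the knockouts. Its subtraction moves every gene of a library by the same amount, so the shares over all genes hold that shift. They also count both directions together. The marker mean had an r of 0.98 with it, so what the markers share with the 20 genes is taken out. With challenge 0 of 10 markers had groups that did not overlap, against 35% of all genes tested. The differences ran from -0.69 for Sox17 to 0.47 for Ackr1. With genotype 3 of 10 did, all higher in the knockouts, against 23.8% of all genes. For Plvap the relative level was 1.24 ± 0.34 in the knockouts and 0.43 ± 0.32 in the challenged controls (SD, n = 3; difference 0.81). For Esam it was -0.61 ± 0.21 and -1.19 ± 0.43 (difference 0.58), and for Cdh5 0.96 ± 0.13 and 0.64 ± 0.10 (difference 0.32). Each had an exact two-sided permutation p of 0.1, the smallest that 3 pools against 3 can give, and 0.6 after Benjamini-Hochberg adjustment over 30 tests. Between knockouts and unchallenged controls 2 of 10 did, against 3.13% of all genes: Plvap (difference 0.71) and Egfl7 (difference 0.45), both higher in the knockouts (exact permutation p = 0.1, adjusted 0.6). With the median of the 20 genes as the reference the 3 counts were 1, 2 and 0, against 20.5%, 21.7% and 2.76% of all genes, so the count for the last comparison rests on that choice. With 1 library left out, the shares over all genes moved as well. With challenge the count was 3 without challenged control 3 (37.5% of all genes), 2 without challenged control 1 (59.4%) and 2 without unchallenged control 1 (47.8%). With genotype it was 5 without challenged control 3 (26.4%) and 5 without Vegfr3iLECko 2 (39.4%). Between knockouts and unchallenged controls it was 4 without unchallenged control 2 (7.61%), 4 without Vegfr3iLECko 2 (6.64%) and 3 without Vegfr3iLECko 1 (43%).

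**Figure D4:**
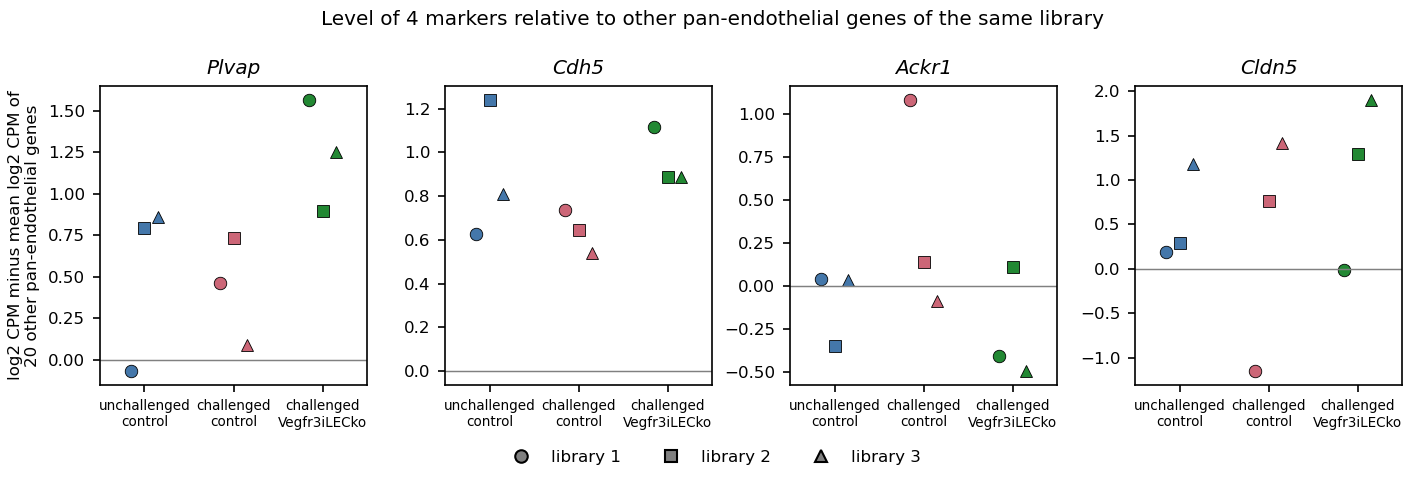
Log2 CPM of 4 markers minus the mean log2 CPM of 20 other pan-endothelial genes of the same library (vertical axis), by group and library. In Plvap and Cdh5 all 3 Vegfr3iLECko libraries lie above all 3 challenged controls; in Ackr1 challenged control 1 stands above the other libraries at 1.08, and in Cldn5 it stands below them at -1.15.

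Genes of muscle, fat and pericytes moved with the markers over the 9 libraries, and those of blood less so. Those of conjunctival epithelium went the other way, with an r of -0.54 between their mean and the marker mean. The mean of the muscle, adipocyte and pericyte lists had an r of 0.82, 0.73 and 0.79 with the marker mean. For the red blood cell, platelet and leukocyte lists it was 0.42, 0.39 and -0.08. The part of these tissues in the marker levels was not tested. The summed level of 14 skeletal muscle genes was 2037 to 6526 CPM without challenge, highest in unchallenged control 2, 413 to 1220 CPM with challenge, lowest in challenged control 3, and 2739 to 4107 CPM in the knockouts. Acta1, skeletal muscle actin, had a log2 fold change of -2.20 for challenge (SE 0.45, adjusted p = 0.101) and 1.84 for genotype (SE 0.45, adjusted p = 0.338), without overlap of the groups in either. Cdh5 had an r of 0.81, 0.75 and 0.77 with the mean of the muscle, adipocyte and pericyte lists over the 9 libraries. Without unchallenged control 2 and Vegfr3iLECko 1 these were 0.85, 0.57 and 0.25. The mean of the pericyte list was 5.84 log2 CPM in Vegfr3iLECko 1 and 2.96 to 4.45 elsewhere, so its r depended on the high libraries. With the muscle mean as a covariate the median log2 fold change of the markers was 0.56 with challenge and -0.34 with genotype. Both had turned direction, and 0 of the 10 passed. The muscle level did not overlap between the groups of either comparison. This fit therefore cannot tell muscle content apart from challenge or genotype. No muscle gene passed in either comparison, but with the replicate block 4 of 14 did with challenge, all lower: Myl1, Mb, Tnni2 and Ttn (edgeR adjusted p = 0.0200, 0.0268, 0.0420 and 0.0420). With this block 1.71% of all genes passed with challenge. The 9 adipocyte genes summed to 32.4 to 119 CPM, 16.7 to 27.3 CPM and 48.8 to 65.7 CPM in the 3 groups, and 3 of the 7 tested passed with challenge with the block (Cfd, Cidec and Adipoq) against 0 without it. The 11 genes of pericytes and vascular smooth muscle summed to 812 CPM in Vegfr3iLECko 1 and to 273 to 427 CPM in the other 8 libraries. In that list Acta2 and Myh11, contractile genes of smooth muscle, were at 218 and 188 CPM in Vegfr3iLECko 1 and at 7.49 to 35.2 and 1.89 to 27.9 CPM elsewhere, whereas the pericyte receptor gene Pdgfrb was at 65.0 CPM there and 27.8 to 70.03 CPM elsewhere. The 5 red blood cell genes summed to 160 CPM in Vegfr3iLECko 1 and 30.1 to 85.5 CPM in the others. The platelet chemokine gene Ppbp was at 75.8 CPM in challenged control 1 and 56.2 CPM in Vegfr3iLECko 1, and at 0.997 to 4.57 CPM elsewhere. Other platelet genes did not share this: Pf4 was at 11.6 to 28.5 CPM and Gp1ba at 0.448 to 1.60 CPM over all 9 libraries.

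**Figure D5:**
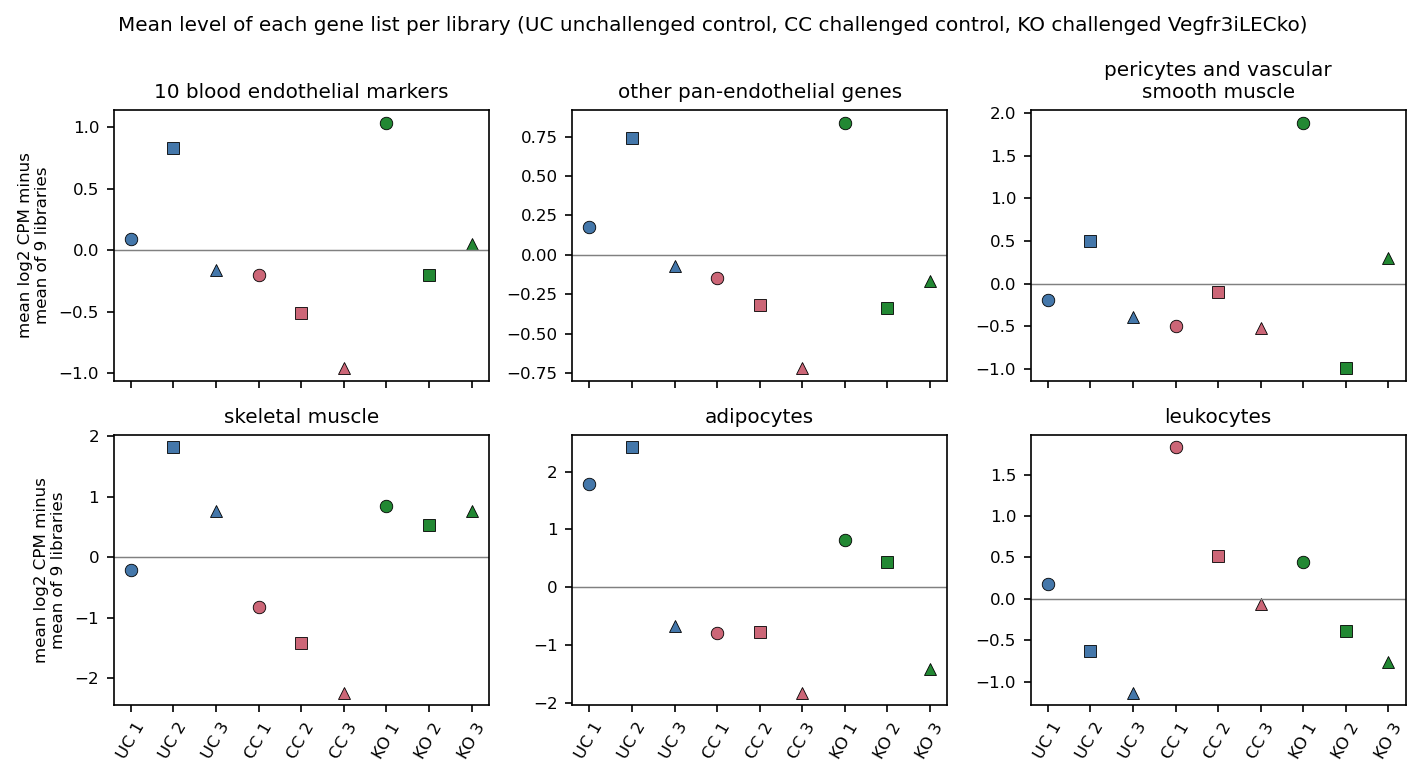
Mean log2 CPM of the 10 markers and of 5 gene lists in each library, as the deviation from the mean of the 9 libraries (vertical axis; UC unchallenged control, CC challenged control, KO challenged Vegfr3iLECko). The markers and the other pan-endothelial genes are highest in UC 2 and KO 1 and lowest in CC 3, muscle genes are highest in UC 2 and lowest in CC 3, and leukocyte genes are highest in CC 1.

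Challenged control 1, where Ackr1 was highest and Cldn5 lowest, was also the library with the most leukocyte RNA. The 10 leukocyte genes summed to 1187 CPM there, to 565 and 404 CPM in challenged controls 2 and 3, to 223 to 429 CPM without challenge and to 216 to 497 CPM in the knockouts. None of the 9 tested passed in either comparison, but with the replicate block 6 did with challenge (Ptprc, Cd52, Coro1a, Laptm5, Lcp1 and Cd3e) and 1 with genotype (Ptprc, edgeR adjusted p = 0.0354). With the block, 1.71% and 0.141% of all genes passed in these comparisons. Cldn5 had an r of -0.90 with the mean of the leukocyte genes over the 9 libraries and of 0.89 with that of the caveola genes. These were the r furthest from 0 among all lists compared. Challenged control 1 was at the extreme of both lists. The leukocyte mean was 6.70 log2 CPM there and 3.73 to 5.39 elsewhere, and the caveola mean was 6.67 there and 7.13 to 7.32 elsewhere. An r without this library was not computed. Ackr1 had an r of 0.74 with the mean of 4 adhesion genes of activated venules. Of these, Icam1, a ligand of leukocyte integrins, was at 321 CPM in challenged control 1 and 21.8 to 50.5 CPM in the other 8 libraries. Vcam1, which binds integrins of lymphocytes and monocytes, was at 87.2 CPM there and 6.72 to 20.8 CPM elsewhere. Selp, P-selectin, which endothelial cells and platelets store, was at 27.5 CPM in that library and 0.342 to 4.05 CPM elsewhere. Sele, E-selectin, which activated endothelium makes, was at 18.8 CPM there; challenged control 3 had 0 counts, under its floor of 0.171 CPM, and the others were at 0.210 to 2.41 CPM. Icam1, Vcam1, Selp and Sele did not pass with challenge (adjusted p = 0.222, 0.230, 0.320 and 0.525). In this library Pecam1 also had its highest level relative to the 20 pan-endothelial genes (1.87, against 1.32 to 1.85 in the others).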

How the data were processed

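Messenger RNA of mouse conjunctiva was measured in 9 libraries, each a pool of 3 mice, in 3 groups of 3. The authors deposited raw counts of reads per gene symbol; per the submitters' processing notes they used HISAT2, Bowtie2, DESeq2 and build mm39. Versions, the read counter, the gene annotation and the strand were not given in the sources used here. Reads that fall where genes overlap may be assigned to either gene: in RefSeq (GRCm38.p6) 5 of the 10 markers overlap another gene, such as Plvap with Gtpbp3 and Ackr1 with Cadm3.

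All 9 libraries entered 1 edgeR fit (version 4.0.16 in R 4.3.3; quasi-likelihood test) with TMM scaling and filterByExpr, which left 15613 genes. P-values are two-sided, with Benjamini-Hochberg adjustment over all genes tested and a threshold of 0.05. Log2 CPM values used a prior count of 2. The floors reflect counting error alone, because without molecular identifiers reads can be copies of 1 molecule. The fit was tested on simulated counts for the direction and size of its estimates. No statement of power is drawn from that test. DESeq2 (1.42.0), limma-voom (limma 3.58.1), other scaling and filters, a replicate block, a muscle covariate and leaving out libraries were alternatives.

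Deviations of same-numbered pools from their group means had an r over all genes of 0.24 to 0.49 between the control groups (3 of 3 above 0.1). Between knockouts and challenged controls it was -0.15 to 0.34. What the number marks is not stated, and the likeness by number was taken from the data. The main fits by edgeR, DESeq2 and limma-voom used no pairing. The replicate block was an alternative over all 9 libraries. It therefore also tied the knockouts by number, where same-numbered pools did not all deviate together.

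The members and lists were chosen with earlier results of these data known. Named were all 10 members, the 5 genes most like their mean among genes with a mean of at least 1 CPM, and of each other list the genes that passed, up to 4, or else 1 or 2 of the highest mean CPM; values are given where they bear on the markers. Selp, Sele, Gp1ba, Acta2, Myh11 and the genes that passed only with the block were chosen after their values were seen. Eng and Flt1 also fall outside this rule. In the pericyte list Notch3 was more abundant than Pdgfrb but was not described.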

Additional observations from a re-analysis of the deposited data

How the results depend on the processing

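No marker passed in any comparison under any alternative run. With challenge the number of all genes that passed was 10, and it was 20 without a count filter, 753 by DESeq2, 6 by limma-voom, 1 with only the 2 groups, 0 with the muscle covariate, 0 without both unchallenged control 2 and Vegfr3iLECko 1 (chosen after seeing the data) and 0 to 121 when 1 library was left out. Leaving out unchallenged control 2 or 3 gave 0, challenged control 3 gave 1, challenged control 2 gave 35, Vegfr3iLECko 1 and 3 gave 6 and 5 and unchallenged control 1 gave 121. With genotype it was 0, and 231 by DESeq2; between knockouts and unchallenged controls it was 0, and 14 by DESeq2. With the replicate block 267 genes (1.71%) passed with challenge and 22 (0.141%) with genotype. In the lists, muscle, adipocyte and leukocyte genes were among them (4, 3 and 6 with challenge, and 1 leukocyte gene with genotype); it changed no call of a marker.

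With the muscle covariate the median log2 fold change of the markers was 0.56 with challenge and -0.34 with genotype, and single genes turned too. With challenge they were Pecam1 (0.64), Cdh5 (0.48), Plvap (1.04), Vwf (0.80), Esam (0.79) and Ackr1 (0.90), and with genotype Pecam1 (-0.42), Cdh5 (-0.44), Plvap (-0.27), Vwf (-0.73) and Esam (-0.51). The covariate differs between the groups, so it overlaps with both comparisons; the cause was not tested. Without both high libraries Ackr1 with challenge was 0.063, Vwf with genotype -0.21 and the genotype median 0.46. With 1 library left out, the genotype median was 0.46 to 1.21, Vwf with genotype -0.22 to 1.61, Ackr1 -0.67 to 0.28 with challenge and -0.59 to 0.39 with genotype, and Plvap between knockouts and unchallenged controls -0.083 to 1.09. The counts of markers whose relative levels did not overlap were then 0 to 3, 3 to 5 and 2 to 4 in the 3 comparisons. Of all genes, 35% to 59.6%, 23.8% to 39.4% and 3.13% to 43% did not overlap in these runs. With the median of the reference genes the counts were 1 with challenge (20.5% of all genes) and 0 between knockouts and unchallenged controls (2.76%). Without both high libraries the count was 5 in the latter comparison, where 48.2% of all genes did not overlap. With 7 to 76 counts per library, Sox17 is the marker whose values depth limits most.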
